A study of Mus musculus with 22 samples.

Results

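The RNA and chromatin of 8 haematopoietic growth factor receptor genes were followed across mouse dendritic cell (DC) subsets. The genes were Flt3, Kit, Csf1r, Csf2ra, Csf2rb, Csf2rb2, Csf3r and Il3ra. They were taken by gene symbol from a table of 34047 genes, by a rule that used no measured value, and all 8 were listed and passed the filter on low counts. Of 177956 ATAC-seq windows of 150 bases, 93 lay in peaks whose closest annotated gene was one of the 8. RNA-seq covered 16 libraries, 9 from spleen and 7 from mesenteric lymph nodes (MLN), and ATAC-seq covered 6 spleen libraries. All mice were 6 to 10 weeks old, of both sexes, and carried Tbx21RFP-Cre, a knock-in on both Tbx21 alleles that marks cells expressing the transcription factor T-bet with RFP, so control and reporter-positive cells share this genotype. Cells of 2 mice were pooled for each RNA library. The gate left out lineage-positive, CD64+ and Ly6C+ cells and kept those positive for CD11c and MHCII. From it, XCR1+ CD11b- cells were sorted as cDC1s, RFP+ CD11b+ XCR1- cells as T-bet+ cDC2s and RFP- CD11b+ XCR1- cells as T-bet- cDC2s. Each spleen subset had 3 RNA libraries, MLN cDC1s had 3, each MLN cDC2 subset had 2, and each subset had 2 ATAC-seq libraries of 50000 cells.

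FLT3, KIT and CSF1R are receptor tyrosine kinases. FLT3 ligand drives DC formation from bone marrow progenitors and sustains conventional DCs in lymphoid organs. KIT binds stem cell factor and is best known on progenitors and mast cells, and CSF1R binds CSF1 and IL-34 and maintains macrophages and monocytes. The other receptors have no kinase of their own. Those for GM-CSF and IL-3 signal through JAK2 and STAT5. CSF2RA is the ligand-binding alpha chain for GM-CSF, IL3RA is the alpha chain for IL-3, and CSF2RB is the beta chain that both share with the IL-5 receptor. Mice carry an additional beta chain gene, Csf2rb2, whose product pairs with the IL-3 alpha chain. CSF3R binds G-CSF as a homodimer and is the growth factor receptor of the neutrophil lineage.

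The sequences of the chromatin windows that carry the locus results are given here in GRCm38, plus strand, as 150 bases each, with the 300 bases around the Csf3r start as listed by RefSeq (GRCm38.p6). At each locus the first choice was the window with the lowest adjusted p between the cDC2 subsets, or failing that in any comparison. The Csf1r window was chosen in the same way, and its sequence is not printed here. The Flt3 mid-gene window, the Kit internal-start window and the Csf3r promoter were added after their values were seen. Capitals mark a match, on either strand, to 1 of 7 motifs: PU.1 (GAGGAAGT), C/EBP (TTGCNNAA), Runx (TGTGGTT), T-box (AGGTGTNA), AP-1 (TGANTCA), STAT5 (TTCNNNGAA) and an IRF element (GAAANNGAA). AP-1 and STAT5 read the same on both strands. No motif lies within another by its letters, although matches may overlap.
Flt3 distal intronic window, chr5:147339691-147339840: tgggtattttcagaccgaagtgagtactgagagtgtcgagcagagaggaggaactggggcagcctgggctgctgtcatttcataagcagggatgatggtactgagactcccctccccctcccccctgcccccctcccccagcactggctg
Flt3 mid-gene intronic window, chr5:147353790-147353939: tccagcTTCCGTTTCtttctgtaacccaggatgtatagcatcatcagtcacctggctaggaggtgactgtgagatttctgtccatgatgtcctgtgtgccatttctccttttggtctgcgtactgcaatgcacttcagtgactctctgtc
Kit window past the gene end, chr5:75673298-75673447: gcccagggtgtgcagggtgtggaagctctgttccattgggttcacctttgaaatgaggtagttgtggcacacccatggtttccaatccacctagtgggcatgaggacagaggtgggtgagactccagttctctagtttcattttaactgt
Kit internal-start window, chr5:75640445-75640594: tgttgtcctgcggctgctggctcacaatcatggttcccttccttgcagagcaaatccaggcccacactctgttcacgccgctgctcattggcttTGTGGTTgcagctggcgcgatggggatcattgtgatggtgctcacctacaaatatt
Csf2rb intronic window, chr15:78332096-78332245: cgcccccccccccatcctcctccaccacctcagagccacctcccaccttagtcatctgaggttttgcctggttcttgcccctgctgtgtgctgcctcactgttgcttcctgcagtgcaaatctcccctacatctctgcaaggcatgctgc
Csf2rb2 window past the gene end, chr15:78278561-78278710: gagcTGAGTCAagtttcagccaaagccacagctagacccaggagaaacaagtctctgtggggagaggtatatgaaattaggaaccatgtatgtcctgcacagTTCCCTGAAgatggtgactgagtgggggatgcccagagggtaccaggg
Csf3r promoter, chr4:126024409-126024708: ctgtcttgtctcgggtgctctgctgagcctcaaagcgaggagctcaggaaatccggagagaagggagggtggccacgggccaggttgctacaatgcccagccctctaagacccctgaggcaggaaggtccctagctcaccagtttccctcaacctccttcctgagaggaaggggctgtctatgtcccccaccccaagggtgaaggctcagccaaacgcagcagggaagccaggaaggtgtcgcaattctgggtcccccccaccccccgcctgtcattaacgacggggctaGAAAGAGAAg
Csf3r intronic window, chr4:126030826-126030975: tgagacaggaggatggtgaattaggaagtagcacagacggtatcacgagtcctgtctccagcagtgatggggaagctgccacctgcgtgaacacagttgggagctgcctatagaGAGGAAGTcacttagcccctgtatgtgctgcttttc
Il3ra window past the gene end, chr14:14356555-14356704: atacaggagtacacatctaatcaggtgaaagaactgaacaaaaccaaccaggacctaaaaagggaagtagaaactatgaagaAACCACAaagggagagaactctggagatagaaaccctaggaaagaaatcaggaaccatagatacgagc

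Matches were present in 6 of these 9 sequences. The Csf3r promoter and the Flt3 mid-gene window held the IRF element, the Csf3r intronic window PU.1, the Csf2rb2 window AP-1 and STAT5, the Il3ra window Runx on the minus strand and the Kit internal-start window Runx on the plus strand. The Flt3 distal window, the Kit window past the gene end and the Csf2rb window held none of the 7. Of all 177956 windows, 5.5% held PU.1, 5.89% C/EBP, 5.23% Runx, 1.92% T-box, 7.9% AP-1, 4.29% STAT5 and 5.61% the IRF element. Of 32851 RefSeq promoters of 300 bases, 8.56% held the IRF element. Among the 93 windows at the receptor loci, PU.1 was in 6, C/EBP in 8, Runx in 6, T-box in 2, AP-1 in 10, STAT5 in 8 and the IRF element in 4. RefSeq promoters were matched for 6 of the 8 genes. Il3ra's held C/EBP, Csf2rb2's held PU.1 and STAT5, and those of Flt3, Kit and Csf2ra held none.

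Reads counted on genes were 20993220 to 29006549 per RNA library, and reads in ATAC-seq windows 7270164 to 10081555. No libraries were identical. The subset labels were met by their markers: Tbx21 was at 17.2 to 24.9 CPM (counts scaled to library size with TMM factors) in spleen T-bet+ libraries and 0.29 to 2.38 in T-bet- libraries, and Xcr1 at 806 to 1163 in spleen cDC1s against 4.44 to 12.8 in cDC2s. In MLN, Tbx21 was at 7.19 and 2.93 in T-bet+ and 0.54 and 0.92 in T-bet- libraries. Libraries stood apart in 2 other ways. The first was the correlation across genes between a library's deviation from the others and transcript GC content. It was -0.457 and -0.305 in spleen T-bet- replicates 1 and 2 and -0.302 in cDC1 replicate 3, and 0.190 to 0.325 in the other 6 spleen libraries. The former 3 are called lower-class libraries below. Refits without them leave T-bet- replicate 3 alone in its subset, and a library left alone is assumed to vary like the other groups. In MLN it was -0.313 to -0.0341 in T-bet- replicate 1, both T-bet+ libraries and cDC1 replicate 1, and 0.202 to 0.249 in the other 3. The other was Ccr7, the chemokine receptor of migrating DCs, at 2173 in MLN T-bet+ replicate 1 and 2556 in MLN cDC1 replicate 1 against 7714 to 9742 in the other 5 MLN libraries. Refits without the former leave 1 MLN T-bet+ library, under the same assumption.

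The comparison of T-bet+ with T-bet- cDC2s asks how the cDC2 subsets differ in growth factor receptors. In spleen 4 of the 8 genes fell in T-bet+ cDC2s and none rose: Csf1r, Csf3r, Csf2rb and Csf2rb2 (edgeR, adjusted p under 0.05). Over all 14377 genes tested, 5.38% passed, 1.95% higher and 3.44% lower. The median log2 fold change was -0.63 over the 8 receptors and -0.0134 over all genes. Flt3, Kit, Csf2ra and Il3ra did not pass. Csf1r, Csf2rb2 and Csf3r belong to the list of T-bet- genes that the study chose from these same libraries, so their direction is not independent evidence. In bulk samples fewer cells of a type and less RNA per cell cannot be told apart.

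Against cDC1s, the spleen T-bet+ cDC2s were higher in 2 receptors, Csf1r and Csf3r, and lower in 0, where 18.2% of all genes passed (9.97% higher, 8.2% lower). At unadjusted p under 0.05 edgeR gave 3 (4346 of all 14377 genes), the third being Csf2rb2, which was lower. DESeq2 also called Csf2rb2 lower, where it called 3417 of 14326 genes. Spleen T-bet- cDC2s were higher than cDC1s in 3, Csf1r, Csf3r and Csf2rb, where 15.9% passed (9.65% higher, 6.2% lower). At unadjusted p under 0.05 edgeR gave 5 (4086 of all 14377 genes). DESeq2 called 4 (3032 of 14326 genes), the fourth being Csf2rb2, higher, which was called under 5 of 14 alternatives. In MLN, T-bet+ cDC2s were higher than cDC1s in Csf1r alone of the 8 (6.22% of 15298 genes passed, 4.11% higher), and T-bet- cDC2s in Csf1r and Csf3r (5.79% passed, 4.34% higher). Between MLN T-bet+ and T-bet- cDC2s edgeR called 0 receptors and 0.0% of all genes. At unadjusted p under 0.05 it gave 3 receptors (1444 of all 15298 genes), Csf1r, Csf3r and Csf2rb2. DESeq2 called 2, Csf1r and Csf3r, where it called 2.56% of genes.

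**Figure D1:**
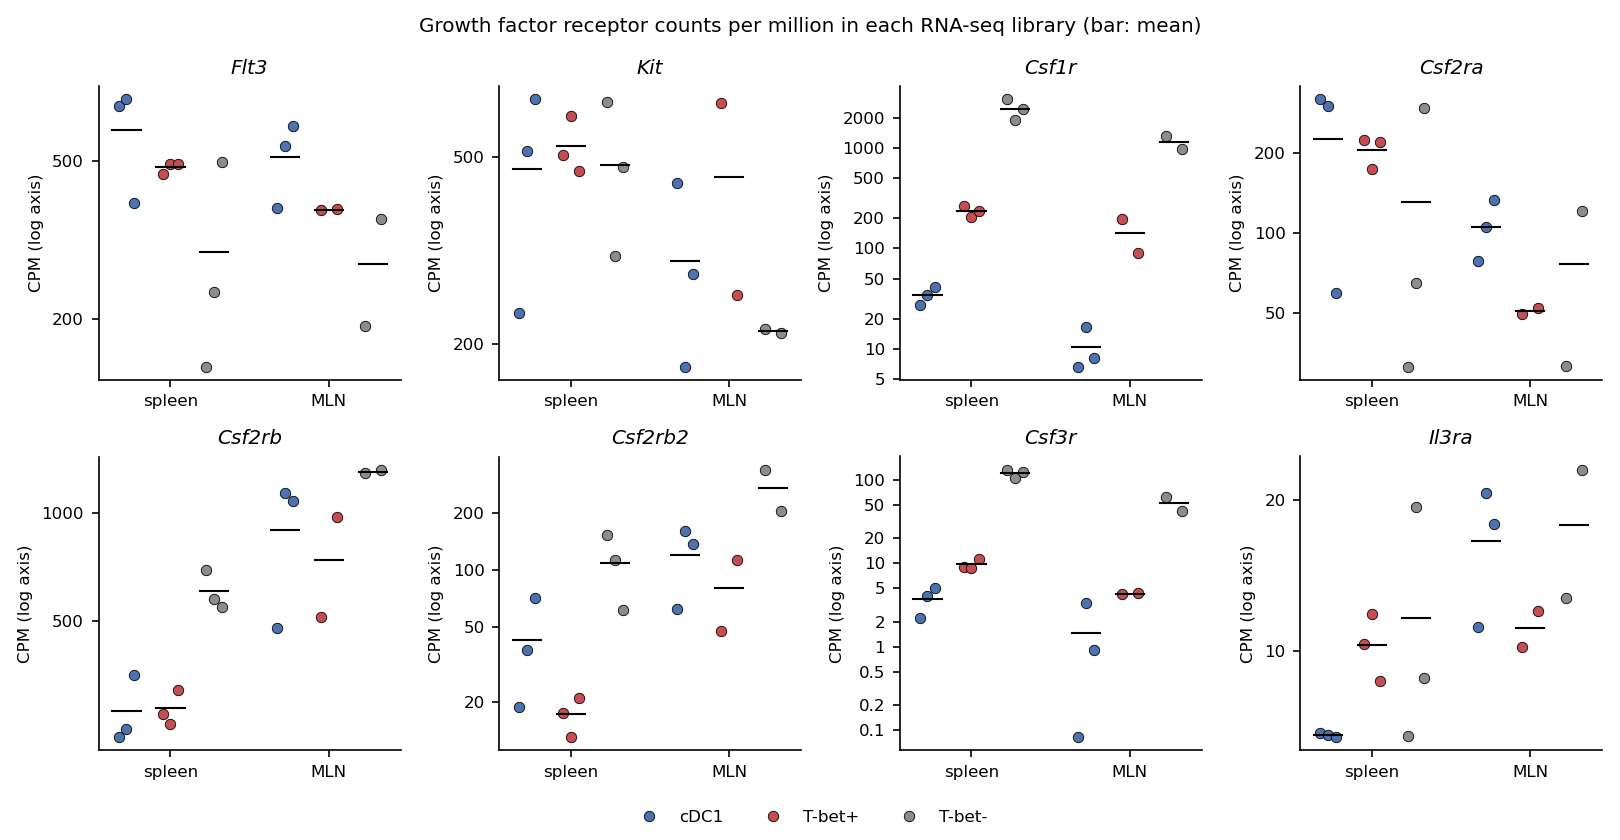
CPM (y, log axis) of the 8 receptor genes in each of the 16 RNA-seq libraries, by tissue (x) and subset (colour), with a bar at each group's mean. Csf1r and Csf3r separate the T-bet- libraries from all others in both tissues, while Kit overlaps between the spleen subsets and Csf2rb is higher in MLN in each subset.

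Csf1r, the macrophage and monocyte receptor, had the highest mean level per exon length of the 8 in T-bet- cDC2s of both tissues. In MLN its order with Csf2rb depends on the length used for each gene. In MLN T-bet- replicate 2, however, it was at 168.3 CPM per kilobase, below Csf2rb at 180.8. In spleen Csf1r was at 3047, 1880 and 2419 CPM in T-bet- cDC2s, at 264, 206 and 237 in T-bet+ cDC2s and at 27.4, 34.0 and 41.6 in cDC1s. No library of one subset reached into another. The log2 fold change was -3.38 (SE 0.247, adjusted p = 0.000139) for T-bet+ over T-bet-, 2.78 (SE 0.241, adjusted p = 5.37e-05) for T-bet+ over cDC1 and 6.16 (SE 0.282, adjusted p = 3.2e-06) for T-bet- over cDC1. All 3 were called under each of 14 alternatives. In MLN it was at 1325 and 972 CPM for T-bet- cDC2s, 197 and 89.0 for T-bet+ cDC2s and 6.66, 16.5 and 8.09 for cDC1s, again with no overlap. The MLN fold was 3.81 (SE 0.497, adjusted p = 0.00567) for T-bet+ over cDC1 and 6.86 (SE 0.561, adjusted p = 0.00086) for T-bet- over cDC1. The former missed the threshold with library class as a term (3.96, adjusted p = 0.0507). Between the MLN cDC2 subsets it was -3.05 (SE 0.562) and did not pass in edgeR (adjusted p = 0.194).

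Csf3r, the neutrophil lineage receptor, had the same order of subsets at much lower levels. In spleen its CPM was 134, 107 and 128 for T-bet- cDC2s, 9.11, 8.81 and 11.3 for T-bet+ cDC2s and 2.23, 4.08 and 5.03 for cDC1s. The 3 subsets did not overlap. Csf3r fell by 3.66 (log2, SE 0.325, adjusted p = 0.00038) in T-bet+ against T-bet- cDC2s and was higher by 5.03 (SE 0.348, adjusted p = 1.45e-05) in T-bet- cDC2s than in cDC1s. The step from cDC1s to T-bet+ cDC2s was 1.37 (SE 0.304, adjusted p = 0.012). That step missed the threshold without T-bet+ replicate 3 (1.25, adjusted p = 0.0509) or cDC1 replicate 2 (1.35, adjusted p = 0.0508). In MLN, Csf3r was at 62.7 and 43.3 CPM for T-bet- cDC2s, 4.25 and 4.36 for T-bet+ cDC2s and 0.08, 3.38 and 0.91 for cDC1s. T-bet- cDC2s exceeded cDC1s by 5.29 (SE 0.968, adjusted p = 0.0202), but not past the threshold without T-bet- replicate 1 (adjusted p = 0.141), T-bet- replicate 2 (0.0927) or cDC1 replicate 3 (0.0879). Between the MLN cDC2 subsets the fold was -3.66 (SE 1.05, adjusted p = 0.354), and for T-bet+ over cDC1 it was 1.62 (SE 0.904, adjusted p = 0.341).

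Csf2rb, the shared beta chain, was higher in spleen T-bet- cDC2s than in either other subset. Its CPM was 695, 575 and 547 for T-bet- cDC2s, 276, 259 and 322 for T-bet+ cDC2s and 238, 250 and 353 for cDC1s. All T-bet- libraries lay above the rest, while T-bet+ cDC2s and cDC1s overlapped. The log2 fold change was -1.08 (SE 0.208, adjusted p = 0.0174) for T-bet+ over T-bet- and 1.11 (SE 0.208, adjusted p = 0.0057) for T-bet- over cDC1. In MLN the levels were 1287 and 1316 CPM for T-bet- cDC2s, 512 and 970 for T-bet+ cDC2s and 477, 1138 and 1078 for cDC1s. T-bet- was the highest subset there too, with no overlap, and its fold did not pass (T-bet+ over T-bet- -0.84, SE 0.470, adjusted p = 0.650).

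Csf2rb2, the beta chain gene for IL-3, was lowest in spleen T-bet+ cDC2s. Its CPM was 153, 112 and 60.9 for T-bet- cDC2s, 17.4, 12.98 and 21.01 for T-bet+ cDC2s and 18.7, 37.5 and 71.2 for cDC1s. T-bet+ libraries stayed below all T-bet- libraries, and both overlapped with cDC1s. The fold was -2.66 (SE 0.512, adjusted p = 0.0174) for T-bet+ over T-bet-, -1.31 (SE 0.491, adjusted p = 0.101) for T-bet+ over cDC1 and 1.35 (SE 0.490, adjusted p = 0.0986) for T-bet- over cDC1. In MLN it was at 338 and 206 CPM for T-bet- cDC2s, 47.6 and 113 for T-bet+ cDC2s and 62.3, 161 and 137 for cDC1s, and T-bet+ over T-bet- was -1.81 (SE 0.559, adjusted p = 0.374). There T-bet- was the highest subset, without overlap. The transcripts of Csf2rb and Csf2rb2 share 18.4% and 19.0% of their 50-base stretches, the read length, so reads of 1 gene can be lost or counted on the other.

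The cDC2 calls of both beta chains in spleen rested on all but 1 of the 6 libraries compared. Without T-bet- replicates 1 or 2 or T-bet+ replicates 1, 2 or 3, the adjusted p of Csf2rb was 0.063, 0.0569, 0.0855, 0.0911 and 0.0519. That of Csf2rb2 was 0.0543, 0.0533, 0.0800, 0.0911 and 0.0604. The folds kept their sign throughout, between -1.24 and -0.97 for Csf2rb and between -3.04 and -2.34 for Csf2rb2. Without the 3 lower-class spleen libraries, where T-bet- replicate 3 alone stood for its subset, the folds were -0.94 (adjusted p = 0.0405) for Csf2rb and -1.83 (adjusted p = 0.0313) for Csf2rb2.

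Csf2ra, the GM-CSF alpha chain, was not called between subsets, and its replicates spread widely. Its CPM in spleen was 31.6, 64.8 and 296 for T-bet- cDC2s, 223, 174 and 219 for T-bet+ cDC2s and 318, 300.2 and 59.6 for cDC1s. The 3 lowest of the 9 were T-bet- replicates 1 and 2 and cDC1 replicate 3, which are the lower-class libraries. The fold of T-bet+ over T-bet- was 0.66 (SE 0.785, adjusted p = 0.705). The sign turned when library class was fitted (-0.44, adjusted p = 0.584) and without the lower-class libraries, against the single T-bet- library left (-0.53, adjusted p = 0.279). Without single libraries the fold ran from 0.19 without T-bet- replicate 1 to 2.02 without T-bet- replicate 3 (adjusted p = 0.959 and 0.0918). T-bet- over cDC1 passed without T-bet- replicate 3 (-2.28, adjusted p = 0.0465), 1 of 14 alternatives. Without the lower-class libraries T-bet+ over cDC1 passed at -0.59 (adjusted p = 0.0495). Csf2ra holds a 100-base stretch of 79% GC against a median of 61% over all genes, and the part of library class in its values was not tested. In MLN it was at 31.8 and 122 CPM for T-bet- cDC2s, 49.6 and 52.1 for T-bet+ cDC2s and 78.7, 105 and 133 for cDC1s.

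Il3ra, the IL-3 alpha chain, was the lowest of the 8 per length in the T-bet- cDC2s of both tissues. Over all subsets and both tissues its group means ran from 6.79 to 17.8 CPM. In spleen it was at 6.74, 19.3 and 8.80 for T-bet- cDC2s, 10.3, 11.8 and 8.68 for T-bet+ cDC2s and 6.79, 6.85 and 6.72 for cDC1s. T-bet+ libraries lay above cDC1s without overlap, but no fold between subsets passed (adjusted p 0.226 to 0.841). In MLN it was at 12.7 and 23.0 CPM for T-bet- cDC2s, 10.2 and 11.99 for T-bet+ cDC2s and 11.2, 20.6 and 17.9 for cDC1s, where adjusted p was 0.423 to 0.855.

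Flt3, the receptor of the DC growth factor, was present in every subset, with means from 274 to 599 CPM. In spleen it was at 151, 234 and 498 CPM for T-bet- cDC2s, 464, 491 and 490.7 for T-bet+ cDC2s and 688, 716 and 393 for cDC1s. T-bet+ replicates lay close together, and the other subsets each had libraries on both sides of them. The fold of T-bet+ over T-bet- was 0.72 (SE 0.397, adjusted p = 0.383) and of T-bet- over cDC1 -1.03 (SE 0.400, adjusted p = 0.123). Both passed without T-bet- replicate 3 (1.25, adjusted p = 0.0437, and -1.68, adjusted p = 0.00767), and the latter with library class as a term (-0.76, adjusted p = 0.0255). Without the lower-class libraries T-bet+ over T-bet-, with 1 T-bet- library left, was -0.051 (adjusted p = 0.936), and T-bet+ over cDC1 passed at -0.54 (adjusted p = 0.0317). Flt3 holds an 81% GC stretch, the richest of the 8, and the part of library class was not tested. In MLN its levels were 192 and 357 CPM for T-bet- cDC2s, 375 and 378 for T-bet+ cDC2s and 379, 545 and 612 for cDC1s. These subsets did not overlap, and T-bet- over cDC1 was -0.84 (SE 0.332, adjusted p = 0.211).

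Kit, the stem cell factor receptor, showed no called difference between subsets in either tissue. In spleen it was at 657, 308 and 477 CPM for T-bet- cDC2s, 506, 612 and 468 for T-bet+ cDC2s and 232, 516 and 665 for cDC1s, with all 3 subsets overlapping. T-bet+ over T-bet- was 0.14 (SE 0.380, adjusted p = 0.876). In MLN its CPM was 215 and 211 for T-bet- cDC2s, 652 and 255 for T-bet+ cDC2s and 442, 179 and 281 for cDC1s. T-bet+ lay above T-bet- cDC2s without overlap, at a fold of 1.05 (SE 0.546, adjusted p = 0.622). The highest 2 MLN values were those of T-bet+ replicate 1 and cDC1 replicate 1, the libraries low in Ccr7. Without these libraries, with 1 T-bet+ library left, the fold was 0.18 (adjusted p = 0.890), and their part in it was not tested. Mast cell and basophil markers summed to 0.0 to 0.831 CPM in every library.

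**Figure D2:**
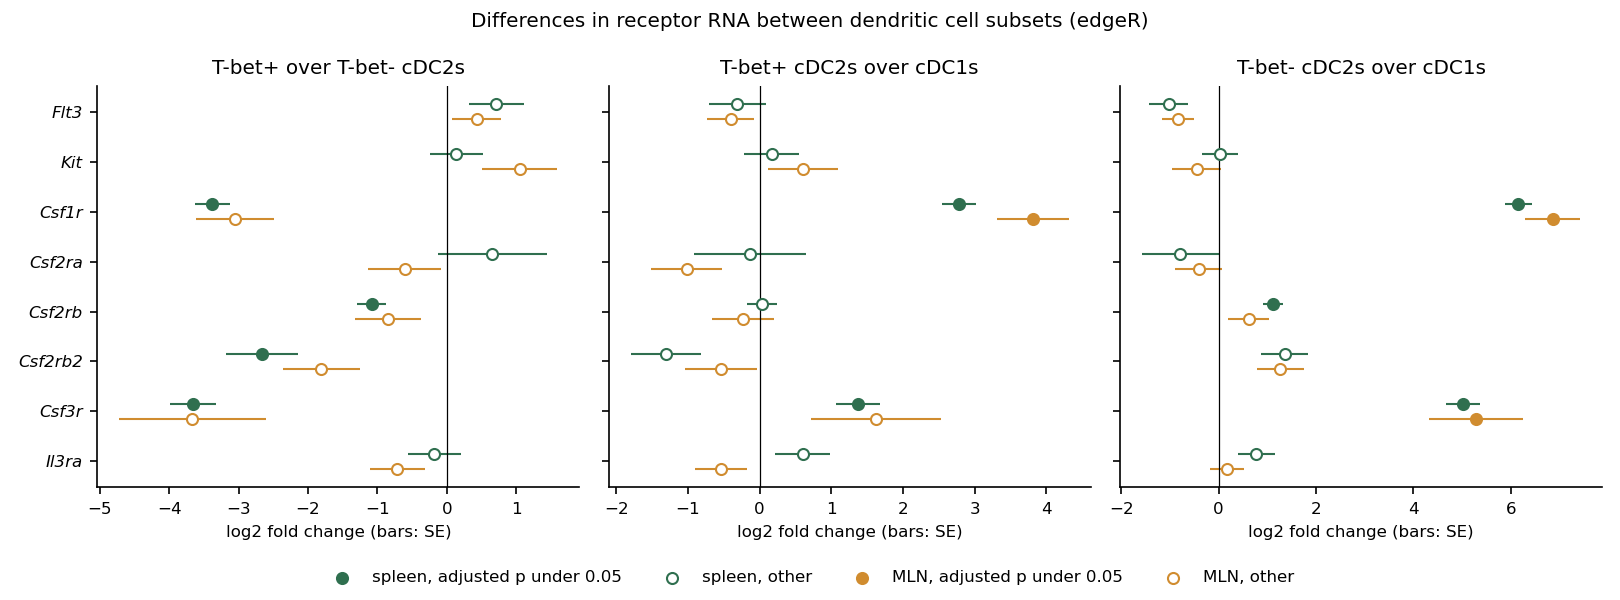
Log2 fold changes (x, bars are SE) of the 8 receptors (y) in 3 subset comparisons, spleen in green and MLN in orange, with filled points for adjusted p under 0.05 in edgeR. Csf1r and Csf3r lie farthest from 0 in the comparisons that involve T-bet- cDC2s.

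Marker lists of other cell types moved with part of these results. Of 7 measured monocyte and macrophage markers 4 fell in spleen T-bet+ against T-bet- cDC2s (Fcgr1, Mertk, C1qa and C1qb) and 0 rose. The 8 listed markers summed to 784 to 1059 CPM in T-bet- libraries, 391 to 473 in T-bet+ libraries and 27.1 to 36.1 in cDC1s, and in MLN to 846 to 1501, 248 to 372 and 18.4 to 35.7. C1qa, a complement gene of macrophages, was at 206, 202 and 136 CPM in spleen T-bet- cDC2s and 18.3, 11.3 and 18.6 in T-bet+ cDC2s, and Fcgr1, which encodes the CD64 used for exclusion in the sort, at 5.36 to 7.92 and 0.41 to 0.83. Csf1r and Csf3r followed the same order of subsets, and the part of these cells in that order was not tested. Of 7 measured neutrophil markers edgeR called 0 between the spleen cDC2 subsets, and 0 at unadjusted p under 0.05, where the list summed to 73.5 to 119 CPM in T-bet- and 91.1 to 100.8 in T-bet+ libraries, and Ly6g, their defining marker, was at 0.0 to 0.457 CPM in all 9. Against cDC1s, where the list summed to 30.1 to 41.4 CPM, 4 of the 7 were higher for T-bet+ cDC2s and 5 for T-bet- cDC2s, and the part of such cells in Csf3r was not tested. The gate left out Ly6C+ cells, and the study defined neutrophils as Ly6C+ Ly6G+. Its single-cell sort, which also left out Ly6C+ cells, still held Ly6C+ monocytes as contaminants, which it removed from later steps. The study also reported similar Zbtb46, a gene of conventional DCs, in both cDC2 subsets. It found CSF1R protein on just a small part of T-bet- cDC2s, despite their higher Csf1r RNA. In mice without CCR2, T-bet- cDC2s with CLEC10A were unaffected and those without CLEC10A were partly reduced. In MLN T-bet- cDC2s Csf3r was at 62.7 and 43.3 CPM and the neutrophil list summed to 1.95 to 2.34. The part of such cells was not tested there either. Of the other lists between the spleen cDC2 subsets, cDC1 markers gave 4 lower of 6, mature migratory DC and B cell markers 1 higher each (of 3 and 2), and plasmacytoid and Siglec-H+ pre-DC markers 0 of 3, with 1 at unadjusted p under 0.05.

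Divided by the length covered by all annotated exons of a gene, receptor levels were set beside each other. The receptors with the highest means differed by subset. For Csf2rb that length was 7277 bases, while its longest transcript had 4900, so orders of close values depend on the length used. The part of library class in these levels was not tested. In spleen T-bet- cDC2s, Csf1r led at 424 ± 101.1 CPM per kilobase (SD, n = 3), followed by Csf2rb at 83.2 ± 10.83. In T-bet+ cDC2s, Flt3 led at 78.1 ± 2.49, followed by Csf2ra at 71.6 ± 9.48, Kit at 59.3 ± 8.39, Csf1r at 40.8 ± 4.99 and Csf2rb at 39.2 ± 4.47. In cDC1s, Flt3 led at 97.0 ± 29, followed by Csf2ra at 78.7 ± 50.3, which is within their spread. In MLN, Csf1r at 199 ± 43.3 and Csf2rb at 179 ± 2.76 led in T-bet- cDC2s (n = 2), and Csf2rb had the highest mean in T-bet+ cDC2s (102 ± 44.5, n = 2) and cDC1s (123 ± 50.3, n = 3). In T-bet+ replicate 1 Kit, at 73.2 CPM per kilobase, was above Csf2rb at 70.4. Il3ra and Csf3r were at most 6.01 CPM per kilobase in every subset, except for Csf3r in T-bet- cDC2s at 34.1 ± 3.89 in spleen and 14.7 ± 3.80 in MLN. Over the 6 groups only Csf1r had no overlap between any neighbours in the order of means: spleen T-bet-, MLN T-bet-, spleen T-bet+, MLN T-bet+, spleen cDC1, MLN cDC1. For Kit all neighbours overlapped. How many of all genes are ordered without overlap was not counted, so these orders describe the receptors only.

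Spleen was then compared with MLN within each subset. Tissue cannot be told apart here from any difference in handling of the spleen and MLN libraries. In cDC1s, Csf1r was higher in spleen, and Csf2rb and Il3ra were lower (11.7% of 16795 genes passed, 3.93% higher and 7.75% lower). In T-bet+ cDC2s, Csf2rb and Csf2rb2 were lower in spleen (5.09% passed, 3.79% lower). In T-bet- cDC2s edgeR called 0 of the 8 (5.95% of genes passed), with 4 at unadjusted p under 0.05 (4108 of 16795 genes). DESeq2 called Csf2rb there, where it called 2274 of 16756 genes. Neutrophil markers were higher in spleen in 3 of 7 in cDC1s and 6 of 7 in each cDC2 subset, and both erythroid markers in all 3 subsets. Of 4 T cell markers 1 was higher and 3 lower in spleen cDC1s, and 1 was lower in each cDC2 subset. Of 3 mature migratory DC markers, 1 was higher and 2 lower in cDC1s, 1 was higher in the T-bet+ subset and 1 lower in the T-bet- subset. The part of these cells in the tissue results was not tested.

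Csf2rb was lower in spleen than in MLN in cDC1s (log2 fold change of spleen over MLN -1.68, SE 0.318, adjusted p = 0.00634), a call held under all 15 alternatives. Among T-bet+ cDC2s it was -1.38 (SE 0.341, adjusted p = 0.0361) and among T-bet- cDC2s -1.10 (SE 0.341, adjusted p = 0.0704). The spleen and MLN values, given above, did not overlap in any of the 3 subsets. Csf2rb2 was at -2.22 (SE 0.557, adjusted p = 0.0378) in T-bet+ cDC2s, -1.50 (SE 0.510, adjusted p = 0.0674) in cDC1s and -1.32 (SE 0.550, adjusted p = 0.160) in T-bet- cDC2s. The T-bet+ calls were lost without MLN T-bet+ replicate 2, the library of that pair with more Ccr7 (Csf2rb -0.83, adjusted p = 0.507, and Csf2rb2 -1.46, adjusted p = 0.492), which leaves 1 library in that group. They were also lost without spleen T-bet+ replicates 1, 2 or 3 (Csf2rb 0.119, 0.103 and 0.0755, Csf2rb2 0.119, 0.109 and 0.0786) and when library class was fitted (0.0925 and 0.192). The MLN libraries low in Ccr7 were the lowest of their tissue in both beta chains, and their part in the tissue folds was not tested.

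Csf1r in cDC1s was higher in spleen by 1.72 (log2, SE 0.363, adjusted p = 0.0103), with every spleen library above every MLN library. Without MLN cDC1 replicate 3 it was 1.57 (adjusted p = 0.0563). Il3ra in cDC1s fell by 1.29 (SE 0.381, adjusted p = 0.0426), with all spleen values under the lowest MLN value. That call was lost without MLN cDC1 replicates 2 or 3 (adjusted p = 0.162 and 0.123) or spleen cDC1 replicates 1, 2 or 3 (0.129, 0.123 and 0.0692). The other tissue folds did not pass. Among them were Csf2ra in T-bet+ cDC2s at 2.02 (SE 0.865, adjusted p = 0.155), which was 0.16 with library class as a term, and Kit in T-bet- cDC2s at 1.18 (SE 0.5, adjusted p = 0.169). Csf1r in T-bet- cDC2s was at 1.09 (SE 0.405, adjusted p = 0.121).

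Whether the difference between cDC2 subsets itself differed between tissues was tested over all 16 libraries. edgeR and DESeq2 called 0 of the 8 receptors, 0 at unadjusted p under 0.05, and edgeR called 0.00595% of 16795 genes. The spleen minus MLN difference of the fold was -0.37 (SE 0.553) for Csf1r, -0.038 (SE 1.01) for Csf3r, -0.27 (SE 0.489) for Csf2rb and -0.90 (SE 0.791) for Csf2rb2. Adjusted p over the 8 was 0.949 to 1.00.

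**Figure D3:**
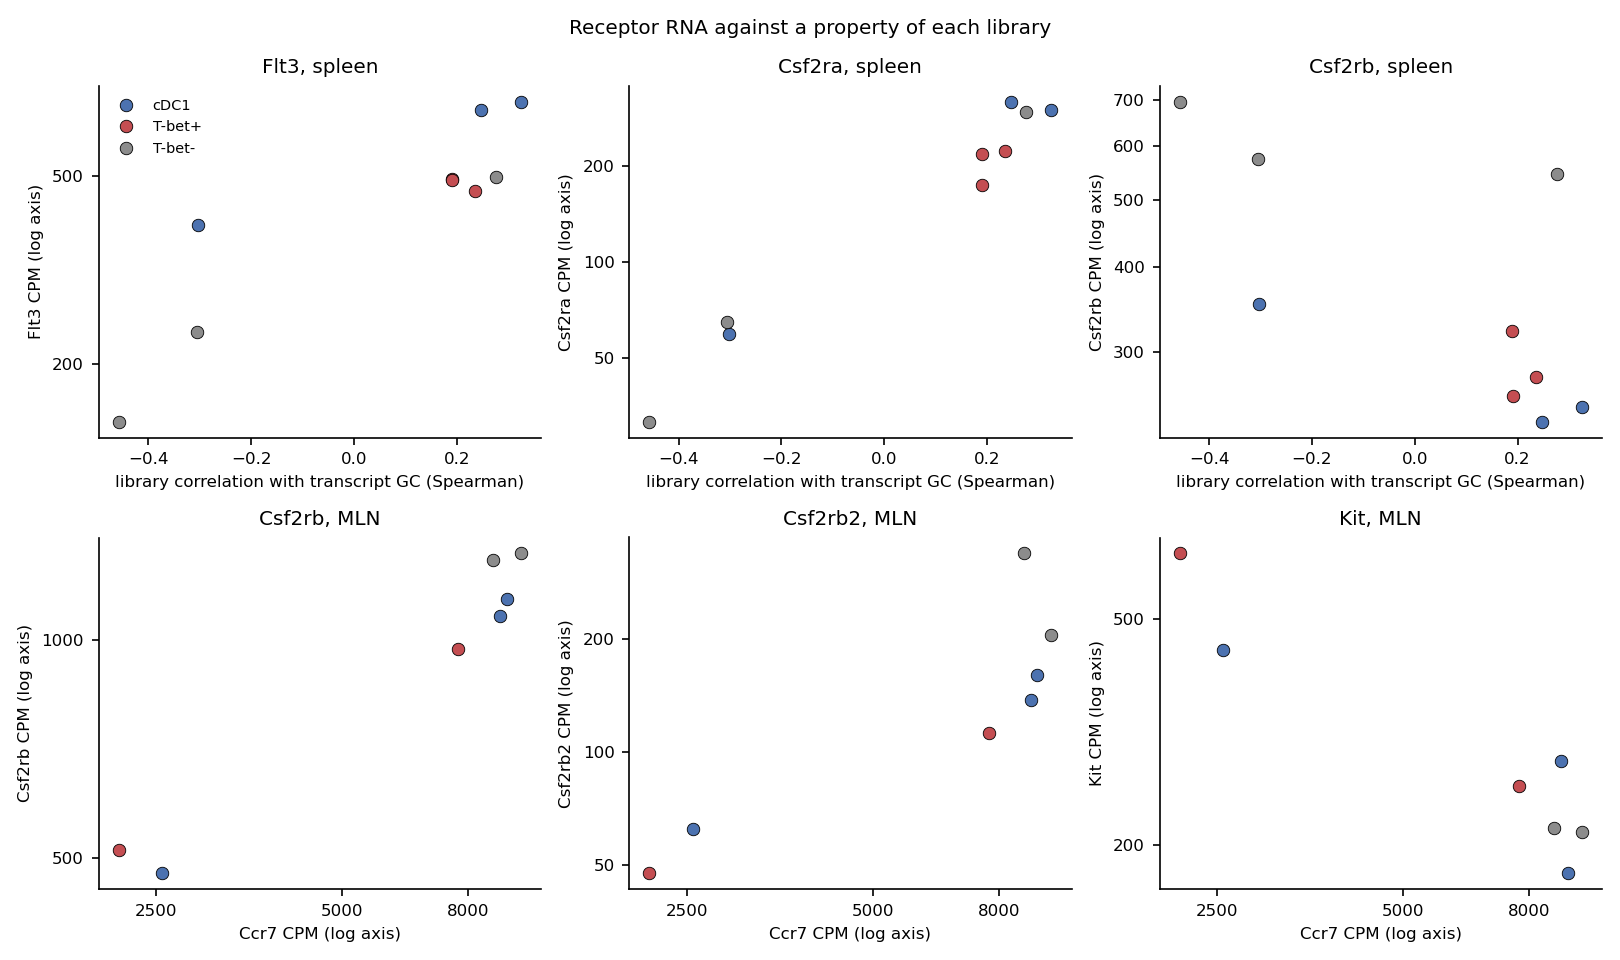
Receptor CPM (y, log axis) in spleen libraries against each library's correlation with transcript GC (upper row) and in MLN libraries against Ccr7 CPM (lower row), coloured by subset. Flt3 and Csf2ra are lowest in the spleen libraries of negative correlation, and the MLN libraries with Ccr7 at 2173 and 2556 CPM are lowest in Csf2rb and Csf2rb2 and highest in Kit.

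The ligands of these receptors were at low levels in the DCs themselves. Of 8 ligand genes 7 were in the table and 2 passed the filter. Flt3l, the FLT3 ligand, was at 10.5, 6.26 and 8.85 CPM in spleen T-bet+ cDC2s, 4.24, 4.52 and 3.85 for T-bet- cDC2s and 1.78, 2.14 and 2.37 for cDC1s, without overlap. It was higher in T-bet+ cDC2s than in cDC1s (2.02, SE 0.319, adjusted p = 0.00196), and T-bet+ over T-bet- was 1.02 (SE 0.309, adjusted p = 0.0997). Csf1, a ligand of CSF1R, was at 0.87 to 7.93 CPM in spleen and reached 24.9 and 22.8 in MLN cDC1 replicates 2 and 3. In cDC1s both fell in spleen against MLN (Flt3l -1.22, SE 0.305, adjusted p = 0.0222, and Csf1 -2.60, SE 0.772, adjusted p = 0.0432). Kitl, Il34, Csf2, Il3 and Il5 were at 0.0 to 0.58 CPM in every library.

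Genes that act with or after the receptors were compared between spleen cDC2 subsets, where 5.38% of all genes passed. Of 8 measured other subunits and relatives edgeR called 0, with 1 at unadjusted p under 0.05, a lowest adjusted p of 0.183 (Pdgfrb) and a median fold of -0.418. Of 35 measured signalling and feedback genes 1 rose and 0 fell, with a median of 0.00556. Jak2, the kinase bound by the beta chains, rose in T-bet+ cDC2s from 60.5, 58.6 and 56.1 CPM to 115, 103 and 100.9 (0.87, SE 0.215, adjusted p = 0.049). Of 21 measured transcription factors known to act on receptor genes 1 fell, with a median of 0.406. Irf8, the factor of cDC1 and monocyte fate, fell from 153, 255 and 448 CPM in T-bet- to 63.4, 50.6 and 76.2 in T-bet+ cDC2s (-2.17, SE 0.367, adjusted p = 0.00979), with no overlap. Irf4, a cDC2 factor, was at 1.55 (SE 0.389, adjusted p = 0.0516).

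The signalling genes were also compared between spleen and MLN, where again tissue and handling cannot be told apart. Of 35 measured, 3 were higher and 7 lower in spleen cDC1s (11.7% of all genes passed), 0 and 4 in the T-bet+ subset (5.09%), and 0 and 7 in the T-bet- subset (5.95%). Their medians were -0.0646, 0.542 and 0.588, beside -0.0145, -0.00268 and 0.0429 over all genes. Jak2 and Socs2, a STAT5-induced feedback inhibitor, fell in spleen in all 3 subsets. Socs2 was at 13.5 to 49.8 CPM in spleen and 82.7 to 457 in MLN, with -3.66 (SE 0.640, adjusted p = 0.00419) in cDC1s, -2.78 (SE 0.649, adjusted p = 0.0284) in T-bet+ and -4.09 (SE 0.678, adjusted p = 0.00473) in T-bet- cDC2s. The 2 lowest MLN values, 82.7 and 86.5 CPM, were in the libraries low in Ccr7. The Jak2 folds were -1.45, -1.36 and -1.86 in the same order (adjusted p = 0.00412, 0.0142 and 0.00305).

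Each receptor was also set beside the genes whose log2 CPM was most alike over the 16 libraries, among 11095 candidates. These correlations describe 16 libraries that share subset, tissue and library class, and carry no test. Csf1r was most like Lrp1 and Clec4a3 (Pearson r 0.976 each), Csf3r like Spic (0.955) and Ms4a7 (0.95), Csf2rb like Pgap2 (0.976) and Mfge8 (0.973), and Csf2rb2 like Snx33 (0.946) and Clcn7 (0.933). Flt3 was most like Rtca (0.967) and Mapkap1 (0.963), Csf2ra like Adprhl2 (0.987) and Zbtb7a (0.98), Kit like Il12rb2 (0.918) and Gpd1l (0.904), and Il3ra like Rgp1 (0.888) and Zfp36l1 (0.866). Among the receptors themselves r was highest for Csf1r with Csf3r (0.953), Csf2rb with Csf2rb2 (0.918) and Flt3 with Csf2ra (0.83).

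ATAC-seq windows at the receptor loci were tested among 166547 windows (called: adjusted p under 0.01 and absolute log2 fold change over 0.5 in edgeR). Of the 93 windows 91 were tested, and 41 were called in at least 1 comparison. The share of all windows called in at least 1 comparison was not counted. Neither the 41 nor the counts per locus called in some comparison can therefore be set against it. Between T-bet+ and T-bet- cDC2s 15 were called, 9 higher and 6 lower in T-bet+, where 6.28% of all windows passed (3.92% higher, 2.36% lower). For T-bet+ over cDC1, 28 were called, 18 higher and 10 lower, where 23.0% passed (11.0% and 12.0%). For T-bet- over cDC1, 22 were called, 12 higher and 10 lower, where 17.9% passed (7.32% and 10.6%). The median fold over the 91 was 0.0295, -0.0565 and 0.0585, beside -0.0118, -0.00489 and 0.0115 over all windows. Windows of 1 peak can overlap and share reads, so they are not independent. With 2 libraries a subset, each call rests on few values.

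**Figure D4:**
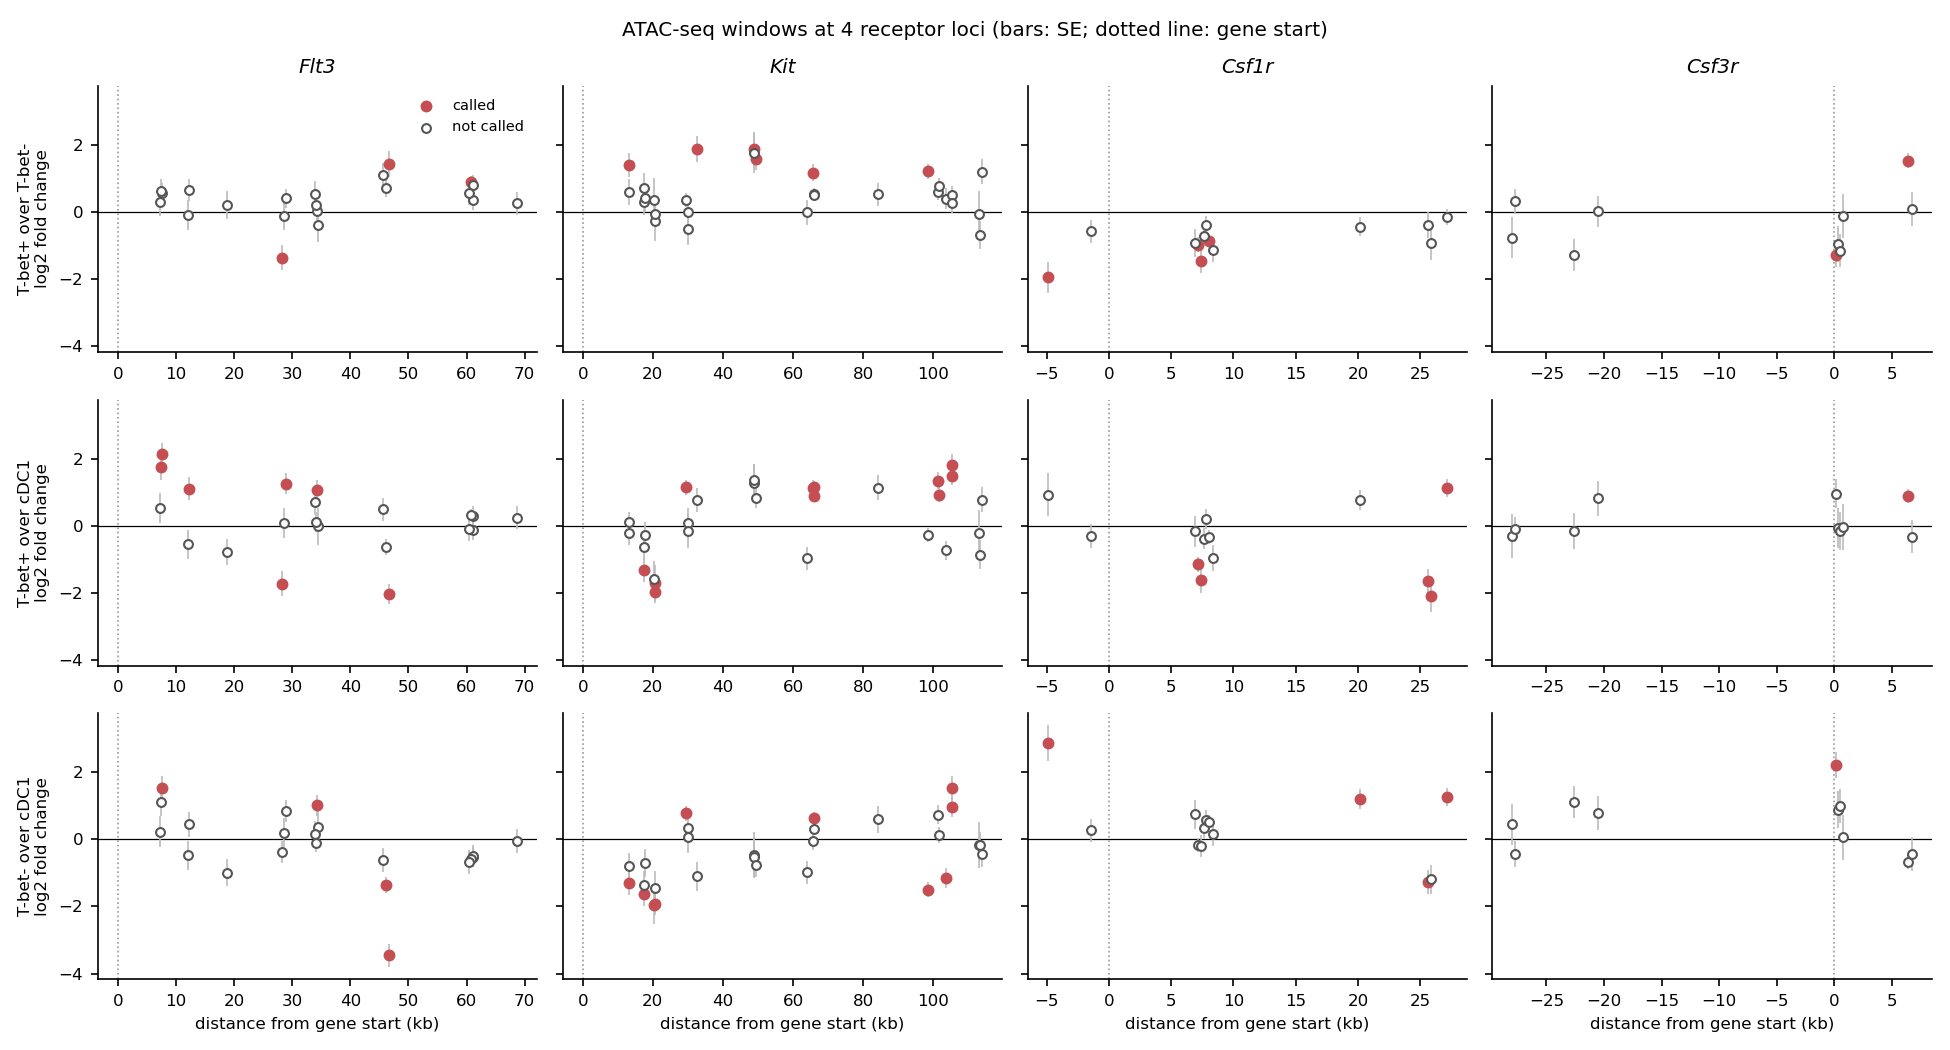
Log2 fold change (y, bars are SE) of each ATAC-seq window at the Flt3, Kit, Csf1r and Csf3r loci against its distance from the gene start in kilobases (x), for 3 subset comparisons in rows, with red points for called windows. All called Kit windows in T-bet+ over T-bet- lie above 0 and all called Csf1r windows below 0.

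Kit had the most windows, 29 in 15 peaks, and 18 were called in some comparison although its RNA was not called between subsets. Between the cDC2 subsets 6 were higher and 0 lower in T-bet+ cDC2s, with a median of 0.53 over the 29. Of these 6, 4 were called under 8 of 9 alternatives and the others under 5 and 2. Against cDC1s, T-bet+ cDC2s had 8 higher and 3 lower and T-bet- cDC2s 4 higher and 6 lower. Kit lies on chromosome 5 at 75574916 to 75656722 on the plus strand. The window past its end, 16576 bases downstream of the gene, was at 9.86 and 7.19 CPM for T-bet- cDC2s, 21.8 and 17.7 for T-bet+ cDC2s and 28.3 and 19.6 for cDC1s. T-bet- libraries lay below all others. The fold was 1.217 (SE 0.225, adjusted p = 5.23e-05) for T-bet+ over T-bet- and -1.50 (SE 0.225, adjusted p = 1.49e-07) for T-bet- over cDC1. The internal-start window lay 65603 bases into the gene, at -564 bases from another annotated start, with 102 of its bases in an exon. It was at 15.5 and 14.9 CPM for T-bet+ cDC2s, 5.67 and 7.59 for T-bet- cDC2s and 7.72 and 6.14 for cDC1s, so T-bet+ stood above both (1.18, SE 0.251, adjusted p = 0.000452 over T-bet-).

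Flt3 (chromosome 5, 147330741 to 147400489, minus strand) had 21 windows in 10 peaks, of which 9 were called in some comparison and 3 between the cDC2 subsets, 2 higher and 1 lower in T-bet+, called under 8, 3 and 2 of 9 alternatives. T-bet+ over cDC1 gave 5 higher and 2 lower, and T-bet- over cDC1 2 of each. The distal intronic window lay 60724 bases into the gene. It was at 41.0 and 33.6 CPM for T-bet+ cDC2s, 20.96 and 19.0 for T-bet- cDC2s and 28.98 and 31.0 for cDC1s. T-bet+ was the highest without overlap, with a fold of 0.90 (SE 0.180, adjusted p = 0.000181) over T-bet-. The mid-gene window, 46625 bases into the gene and chosen after its values were seen, was highest in cDC1s. It was at 13.8 and 15.8 CPM in cDC1s, 2.83 and 4.39 in T-bet+ cDC2s and 1.11 and 1.52 in T-bet- cDC2s. The fold was -3.46 (SE 0.344, adjusted p = 5.41e-13) for T-bet- over cDC1 and -2.03 (SE 0.294, adjusted p = 4.05e-08) for T-bet+ over cDC1. Another intronic window, 7678 bases into the gene and also chosen after its values were seen, went the other way, at 2.13 (SE 0.330) for T-bet+ and 1.54 (SE 0.344) for T-bet- over cDC1.

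At Csf1r 13 windows in 6 peaks were tested, and 8 were called in some comparison. Between the cDC2 subsets 0 were higher and 4 lower in T-bet+, with a median of -0.845, and 2 of the 4 were called under 4 of 9 alternatives. T-bet+ over cDC1, where the RNA was higher by 2.78, gave 1 higher and 4 lower, and T-bet- over cDC1 gave 3 higher and 1 lower. Of the 4 called between the cDC2 subsets, 3 lay in 1 peak, 7136 to 8066 bases into the gene, and the other at -4920 bases from its start. The window with the lowest p, 1855 bases from the nearest annotated start, was at 17.6 and 16.8 CPM for T-bet- cDC2s, 8.92 and 8.68 for T-bet+ cDC2s and 17.5 and 21.6 for cDC1s. T-bet- cDC2s and cDC1s overlapped there, with -0.18 between them (SE 0.210, adjusted p = 0.593), although their RNA differed by 6.16. T-bet+ was lower than T-bet- by -0.97 (SE 0.222, adjusted p = 0.00128) and than cDC1 by -1.15 (SE 0.222, adjusted p = 2.32e-05).

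At Csf3r (chromosome 4, 126024550 to 126044440, plus strand) 10 of 12 windows were tested, 2 were called, and they moved in opposite directions. The start window, in exon sequence 148 bases from the gene start and overlapping the promoter printed above, followed the RNA. It was at 5.55 and 7.80 CPM for T-bet- cDC2s, 3.05 and 2.51 for T-bet+ cDC2s and 1.78 and 1.05 for cDC1s. The fold was -1.27 (SE 0.347, adjusted p = 0.00814) for T-bet+ over T-bet-, a call held under 4 of 9 alternatives, and 2.22 (SE 0.395, adjusted p = 6.36e-06) for T-bet- over cDC1. The intronic window, 6350 bases into the gene, was highest in T-bet+ cDC2s, opposite to the RNA between the cDC2 subsets. It was at 32.6 and 21.3 CPM for T-bet+ cDC2s, 9.62 and 8.91 for T-bet- cDC2s and 16.8 and 12.4 for cDC1s. T-bet+ over T-bet- was 1.54 (SE 0.221, adjusted p = 2.62e-07), called under all 9 alternatives, and T-bet+ over cDC1 was 0.88 (SE 0.213, adjusted p = 0.000618).

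The beta chain genes lie next to each other on chromosome 15, Csf2rb2 at 78282507 to 78305721 on the minus strand and Csf2rb at 78325752 to 78353847 on the plus strand. Between the cDC2 subsets, where their RNA differed, edgeR called 0 of their windows, with 3 at unadjusted p under 0.05, and 1 window was called under 1 of 9 alternatives. At Csf2rb 12 windows were tested and 1 was called, an intronic window 6418 bases into the gene. It was at 11.3 and 9.10 CPM for T-bet+ cDC2s, 9.37 and 8.20 for T-bet- cDC2s and 3.92 and 5.88 for cDC1s, with 1.06 (SE 0.283, adjusted p = 0.00195) for T-bet+ over cDC1, called under 5 of 9 alternatives. At Csf2rb2 2 overlapping windows of 5 were called, both higher in cDC2s than in cDC1s. The printed one, 3797 bases past the end of the gene, was at 16.6 and 8.47 CPM for T-bet+ cDC2s, 10.6 and 11.8 for T-bet- cDC2s and 4.04 and 4.57 for cDC1s. The fold was 1.54 (SE 0.286, adjusted p = 1.04e-05) for T-bet+ and 1.39 (SE 0.290, adjusted p = 0.000112) for T-bet- over cDC1, although Csf2rb2 RNA was lowest in T-bet+ cDC2s.

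Il3ra (chromosome 14, 14346275 to 14356011, plus strand) had 1 window, 544 bases past the end of the gene. It was at 7.72 and 7.31 CPM in cDC1s, 2.18 and 1.99 in T-bet+ cDC2s and 1.85 and 3.14 in T-bet- cDC2s, so cDC1s lay above both. The fold was -1.85 (SE 0.356, adjusted p = 2.06e-05) for T-bet+ and -1.57 (SE 0.348, adjusted p = 0.000278) for T-bet- over cDC1, while Il3ra RNA was not called between these subsets. Csf2ra (chromosome 19, 61223957 to 61228429, minus strand) had 0 windows by the closest-gene rule.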

How the data were processed

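RNA-seq and ATAC-seq counts were analysed as the authors deposited them. For RNA-seq, SMARTer-amplified 50-base read pairs were aligned by the authors to mm10 with HISAT2 2.1.0 and counted on GENCODE vM17 genes with Rsubread, and whether strand was used is not given in the sources used here. For ATAC-seq, the authors aligned with Bowtie2 2.2.5, called peaks with MACS2 2.1.1.20160309 on all replicates together and deposited read counts in 150-base summit windows. Counts per whole peak served as an alternative, and the peak caller's own values in the position files were not used.

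Genes and windows kept by filterByExpr were scaled by TMM and fitted in edgeR 4.0.16 (R 4.3.3) with the quasi-likelihood test and Benjamini-Hochberg adjustment over the whole table. All libraries of a tissue or assay entered 1 fit with subset as the only term, and tissues were compared in 1 fit of all 16 RNA libraries. SE is the absolute log2 fold change over the square root of F. DESeq2 1.42.0 was an alternative. The fits were also run on simulated counts with large known changes. Those counts held no library class and no overlap between windows, so they do not bear on the calls printed here. Positions and exon lengths came from GENCODE M21. Each peak went to its closest gene, at most 50000 bases away. P-values measure the spread between libraries. For RNA each library is a pool of mice, and the spread also holds differences such as library class. Whether mice were pooled for ATAC-seq is not given in the sources used here. A sentence of the methods swaps RFP+ and RFP-, and the labels were followed. The lower class holds libraries whose Spearman correlation with transcript GC, over genes above 3 on the log2 CPM scale, was not above 0.1. Same-numbered spleen T-bet+ and cDC1 libraries correlated in their deviations from group means at r 0.17, 0.135 and 0.111. Spleen T-bet- and cDC1 libraries did so at -0.419, -0.0981 and -0.488. Differently numbered libraries were not compared and no label pairs samples, so whether the numbers pair samples cannot be told. Same-numbered MLN T-bet+ and cDC1 libraries correlated at 0.411 and 0.339.

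The members and gene lists were chosen with earlier results of these data known. Named are the 8 receptors, all measured ligands, at most 4 genes per pathway list by lowest p between spleen cDC2 subsets, the 2 genes most alike to each receptor (prior count 2, mean of at least 50 counts) and 1 window per locus. Marker genes named beside a result, Socs2 and Jak2 between tissues and the further regions at Flt3, Kit and Csf3r were chosen after their values were seen. Leaving out the lower-class spleen libraries or the MLN libraries low in Ccr7 was added after the data were seen.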

Additional observations from a re-analysis of the deposited data

How the results depend on the processing

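Of the fold changes printed for the receptors, 449 refits kept direction and side of the threshold, 36 lost the threshold, 39 gained it and 4 reversed, none of the last past the threshold in either fit. The reversals were Csf2ra in spleen T-bet+ over T-bet- when library class was fitted (-0.44) and without the lower-class libraries (-0.53), Flt3 without those libraries (-0.051), where 1 T-bet- library was left, and Kit without T-bet- replicate 2 (-0.088, with a range of -0.088 to 0.43 over single libraries left out). The cause was not tested. Leaving out 1 library at a time gave 2 to 5 called receptors in spleen T-bet+ over T-bet- (4 with all), 1 to 3 in T-bet+ over cDC1 (2), 3 to 6 in T-bet- over cDC1 (3), 0 in MLN T-bet+ over T-bet- (0), 1 in T-bet+ over cDC1 (1), 1 to 2 in T-bet- over cDC1 (2), 1 to 4 between tissues in cDC1s (3), 0 to 2 for the T-bet+ subset (2), 0 for the T-bet- subset (0) and 0 for the tissue difference. Locus windows called were then 3 to 10 (15), 17 to 27 (28) and 12 to 15 (22), where fewer libraries were left. A library left alone in its group is assumed to vary like the other groups.

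The number of receptors called moved by over 1.5 times as follows, with the count over all genes in brackets where given. With no filter on low counts it was 5 in spleen T-bet- over cDC1 (2965 of 31967). In MLN it was then 3 in T-bet+ over T-bet- (554 of 27006) and 2 in T-bet+ over cDC1 (2257 of 27006). Between tissues it was 6 in cDC1s (3397 of 34047) and 5 in T-bet- cDC2s (2435 of 34047). DESeq2 gave 2 in MLN T-bet+ over T-bet- (392 of 15297) and 1 in T-bet- cDC2s between tissues (2274 of 16756). Fitting library class gave 5 in spleen T-bet- over cDC1 (2744 of 14377) and 0 in MLN T-bet+ over cDC1 (409 of 15298). In T-bet+ cDC2s between tissues it gave 0 (329 of 16795). Without the lower-class libraries it was 4 in spleen T-bet+ over cDC1 and 5 in cDC1s between tissues. Fits of the compared groups only gave 1 in MLN T-bet+ over T-bet- (14 of 14570). Between tissues they gave 4 for the T-bet+ subset (2937 of 14533) and 1 for the T-bet- subset (774 of 14881). A minimum of 10 counts in every library gave 1 in MLN T-bet- over cDC1, where Csf3r was not tested, and leaving out the MLN libraries low in Ccr7 gave 1 in T-bet- cDC2s between tissues. Locus windows called for T-bet+ over T-bet- were 23 at adjusted p under 0.05 with no fold limit (18870 of all 166547 windows). With DESeq2 they were 7 (4811 of 166547). For T-bet- over cDC1 they were 34 (43829 of 166547) and 13 (17054 of 166547) in the same order. For T-bet+ over cDC1 16 whole peaks were called, where 26671 of all 73293 peaks were called. There are fewer peaks than windows.

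With a replicate block, 2 receptors were called in spleen T-bet+ over T-bet- (356 of 14377 genes), with Csf2rb at adjusted p = 0.0564 and Csf2rb2 at 0.0594. The block gave 1 in MLN T-bet- over cDC1 (515 of 15298) and 1 in T-bet+ cDC2s between tissues (627 of 16795). A block by the number in the library name gave 1 in MLN T-bet+ over T-bet- (130 of 15298) and 4 in MLN T-bet- over cDC1 (2477 of 15298). The replicate block gave 2 in spleen T-bet+ over cDC1 (1920 of 14377) and 3 in T-bet- over cDC1 (1610 of 14377). It gave 12, 27 and 21 locus windows (9754, 37314 and 28852 of all 166547). No label says that the numbers pair samples. Same-numbered deviations correlated at -0.0491 to 0.0154 between spleen cDC2 subsets and at -0.0878 between MLN cDC2 subsets. MLN T-bet+ and cDC1 libraries correlated at 0.411 and 0.339, but share only 2 numbers. Depth limits Csf3r in MLN cDC1s, where it had 2, 78 and 25 counts and was as low as 0.08 CPM.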
